A study of Homo sapiens with 15 samples.

Results

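FOXA1 is a forkhead pioneer transcription factor that opens chromatin and, in prostate cells, marks sites used by the androgen receptor. When FOXA1 is depleted with a small interfering RNA (siRNA), peaks of a FOXA1 chromatin immunoprecipitation are usually lost. The regions described here went the other way: they were peaks in the library of 22Rv1 cells given an siRNA against FOXA1 (siFOXA1) that overlapped, by 1 bp or more, no peak of the library given a control siRNA (siControl). Of the 3018 siFOXA1 peaks, 1685 met this rule (55.8%), and the other 1333 were shared with siControl. All 12 peak lists of the series together held 249079 peaks. The peaks were thus chosen by the authors' calls in these 2 libraries, so their count, scores and widths describe them and test nothing.

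22Rv1 is an established human prostate carcinoma line. Besides siFOXA1 and siControl, the parental cells were given 0.1% DMSO, 20 µM of a stereoprobe (WX-02-23 or WX-02-43), or PladB (pladienolide B, a splicing inhibitor). For PladB, the label of the parental sample gives 100 nM and the shared protocol gives 10 nM for parental cells. The engineered cells overexpressed PHF5A, a splicing factor subunit, in its Y36C form, and FOXA1 that doxycycline induces, as wild type (WT) in one line and as C258A in the other. Each engineered line gave 3 lists, one uninduced under DMSO (noDox) and the others induced with doxycycline, under either DMSO or 20 µM WX-02-23. DMSO and the compounds were given for 3 h, and no time or dose of siRNA or doxycycline is given in the labels. There was 1 library per condition, so no difference between conditions could be set against a spread between replicates and no p-value is given. How much FOXA1 protein was left after siFOXA1 was not analysed here, and the labels name no deletion of the engineered lines' own FOXA1.

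Human chromosomes hold long tandem repeats. The sequence beside a centromere consists largely of satellite DNA, and macrosatellites, arrays of units several kilobases long, lie on the arms and near some chromosome ends. Several known arrays carry gene copies, such as the USP17L deubiquitinase genes on the short arms of chromosomes 4 and 8. The RefSeq gene table used here for names lists 23 numbered USP17L genes on chromosome 4 and 6 on chromosome 8. Its build is not that of the peak files, so whether any peak lies on such a gene was not analysed here, and no sequence is shown for the same reason.

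The 12 lists held 3018 to 34119 peaks, and the siFOXA1 list was the shortest. It covered 2.27 Mb, or 0.0733% of the chromosomes, against 28.0 Mb for siControl and 23.1 Mb for parental DMSO. Read depth per library was not analysed here. The deposited score is the value the authors give each peak. No list held a score below 90, and scores were compared only within the siFOXA1 list.

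The siFOXA1-only peaks scored low as a group, with a tail of very strong ones. Their median score was 118, with quartiles of 100 and 161 and a range from 90.03 to 3100. The siFOXA1 peaks shared with siControl had a median of 162, with quartiles of 114 and 255. Of the siFOXA1-only peaks, 407 (24.2%) scored below 100, against 158 (11.9%) of the shared ones. At the other end the sets were alike in share: 29 siFOXA1-only peaks (1.72%) and 23 shared peaks (1.73%) scored 1000 or more. The highest value in the list, 3100, was held by 5 siFOXA1-only and 10 shared peaks.

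Widths followed the same form. The median width was 444 bp for siFOXA1-only peaks, with quartiles of 344 and 672 bp, and 529 bp for shared ones, with quartiles of 424 and 704 bp. Yet 249 siFOXA1-only peaks (14.8%) were wider than 1000 bp, against 142 shared peaks (10.7%), and 93 (5.52%) were wider than 2000 bp, against 47 (3.53%). Above 5000 bp the shares were alike, with 18 siFOXA1-only (1.07%) and 15 shared peaks (1.13%). The siFOXA1-only set thus held many narrow peaks near the lowest score and a minority of broad, strong ones. The widest siFOXA1-only peak lay on chromosome Y from 13105433 to 13127339, spanning 21907 bp, whereas the widest shared peak spanned 41796 bp. The next were a peak of 15178 bp on chromosome X from 58566842 to 58582019 and one of 12767 bp on chromosome 1 from 228756680 to 228769446. The peak on chromosome 1 lay 224 bp from a siControl peak and beside a wide shared siFOXA1 peak.

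At the edge of the rule, the 3 siFOXA1-only peaks closest to a siControl peak were 4, 14 and 16 bp away from it. They lay on chromosome 1 from 148293732 to 148295623, on chromosome 1 from 145357157 to 145358456, and on chromosome 6 from 15189547 to 15190174. The 3 shared peaks with the smallest overlap shared 2, 6 and 10 bp with siControl. Such near misses were few: 72 siFOXA1-only peaks (4.27%) lay within 500 bp of a siControl peak, and 582 (34.5%) within 10000 bp. The median distance to the nearest siControl peak was 26.4 kb.

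The 10 other FOXA1 lists were not used by the rule, and they held few of these regions. They are not independent of it, however. The parental lists among them each called most of the siFOXA1 peaks shared with siControl. A peak chosen for its absence from siControl is thus likely to be absent from them too. The contrasts with shared peaks below therefore partly restate the rule. Of the 1685 siFOXA1-only peaks, 1565 (92.9%, Wilson 95% interval 91.6 to 94.0%) overlapped no peak in any of them, against 53.5% of all siFOXA1 peaks and 3.83% (2.92 to 5.00%) of the shared ones. The remaining 120 (7.12%) were called in at least 1 of the 10 lists, against 46.5% of all siFOXA1 peaks. No siFOXA1-only peak was called in more than 5 of the 10 lists, whereas 137 shared peaks were called in all 10. The intervals allow for counting error alone and take each peak as independent of its neighbours, which peaks in a cluster are not.

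**Figure D1:**
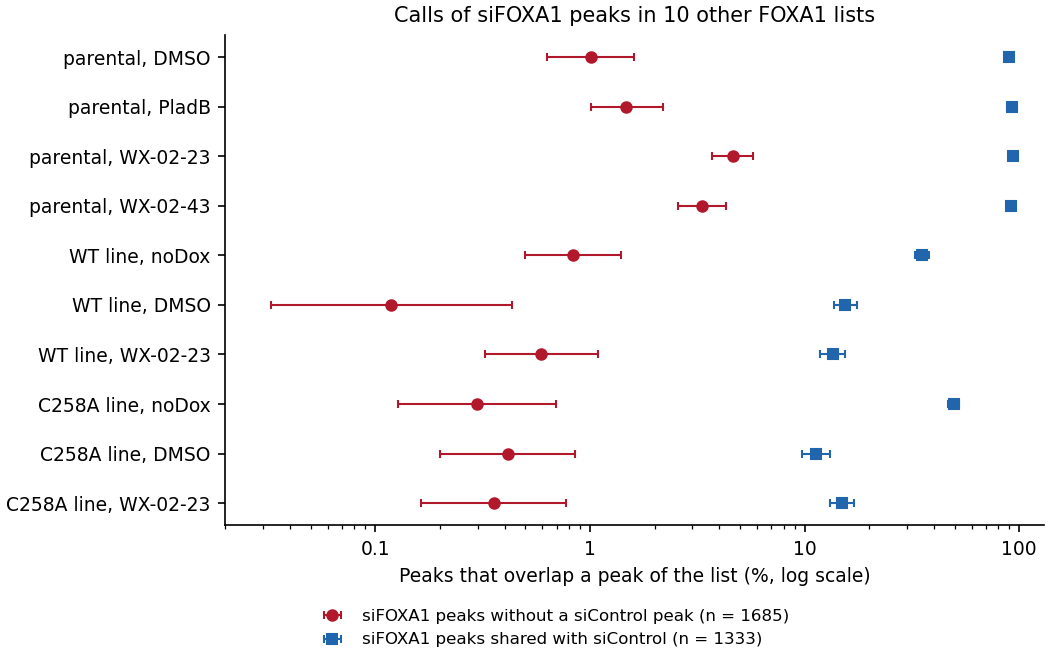
Share of siFOXA1 peaks that overlap a peak of each of the 10 other FOXA1 lists (percent, log axis), for the 1685 peaks without a siControl peak (circles) and the 1333 shared with siControl (squares), with Wilson 95% intervals. The siFOXA1-only peaks run from 0.119% to 4.63% and the shared ones from 11.3% to 93.2%, and among siFOXA1-only peaks the parental WX-02-23 list holds the most.

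Among parental lists, the stereoprobe lists held the most siFOXA1-only peaks although they were shorter than the DMSO and PladB lists. The WX-02-23 list, with 17217 peaks, called 78 of them (4.63%, 3.72 to 5.74%), against 43.7% of all siFOXA1 peaks. The WX-02-43 list, with 18228 peaks, called 56 (3.32%, 2.57 to 4.29%), against 42.4%. The intervals of the 2 stereoprobes, given at the same dose and time, overlap. The DMSO list, with 30557 peaks, called 17 (1.01%, 0.631 to 1.61%), against 40.3%, and the PladB list, with 33121 peaks, called 25 (1.48%, 1.01 to 2.18%), against 41.5%. For the shared siFOXA1 peaks the 4 lists lay close together, with PladB at 92.0%, WX-02-23 at 93.2%, WX-02-43 at 91.8% and DMSO just below them. How much each whole list overlaps siControl was not analysed here. The rule may thus have lowered the counts of siFOXA1-only peaks more in some lists than in others.

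The stereoprobe lists also led among the parental lists at equal length. With each of the 10 lists reduced to its 8575 highest-scoring peaks, WX-02-23 called 24 siFOXA1-only peaks (1.42%, 0.959 to 2.11%) and WX-02-43 called 13 (0.772%, 0.451 to 1.32%). DMSO and PladB called 4 each (0.237%, 0.0924 to 0.609%). Over all 10 lists, the uninduced WT list, which has 8575 peaks in all, came between the stereoprobes with 14 (0.831%, 0.496 to 1.39%), and the other engineered lists called 1 to 3 each. The share of all siFOXA1 peaks called in the shortened lists was not analysed here. Whether the shortened stereoprobe lists call more siFOXA1 peaks of any kind is thus not known. Of the 78 peaks called with WX-02-23, 38 (48.7%) were also called with WX-02-43, which is 67.9% of the 56 of that list. A total of 72 siFOXA1-only peaks were called with at least 1 stereoprobe and neither with DMSO nor with PladB. The same count over all siFOXA1 peaks was not analysed here.

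In the engineered lines, each whole list called fewer siFOXA1-only peaks than any whole parental list. This order depends on list length, since at equal length the uninduced WT list called 14, against 4 each with parental DMSO and PladB and 13 with WX-02-43. Without doxycycline, the WT list called 14 siFOXA1-only peaks (0.831%), against 16.0% of all siFOXA1 peaks, and the C258A list called 5 (0.297%), against 22.0%. With doxycycline and DMSO, the WT list called 2 (0.119%, 0.0326 to 0.432%), against 6.93%, and the C258A list called 7 (0.415%, 0.201 to 0.855%), against 5.24%. With doxycycline and WX-02-23 the counts were 10 in WT cells (0.593%, 0.323 to 1.09%), against 6.33%, and 6 in C258A cells (0.356%, 0.163 to 0.775%), against 6.83%. The 4 induced lists thus called 2 to 10 of these regions each and the uninduced WT list 14, although the induced WT list with DMSO had 31735 peaks and the uninduced one 8575. Of the 120 peaks called anywhere else, 100 were called in parental lists only, 17 in engineered lists only and 3 in both. This split over all siFOXA1 peaks was not analysed here.

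The siFOXA1-only peaks that recurred were stronger and wider than the others. Those called in at least 1 other list had a median score of 210 and a median width of 724 bp, against 115 and 433 bp for those called in none. The share called elsewhere went from 2.70% of peaks scoring below 100 to 4.61% from 100 to 200, 18.2% from 200 to 500, 24.3% from 500 to 1000 and 34.5% (10 of 29) above that. Median width rose alongside, from 366 bp in the lowest of these ranges to 2996 bp in the highest. Whether calls rise with score in the same way over all siFOXA1 peaks was not analysed here. The rise is thus not shown to be particular to siFOXA1-only peaks. A call needs only 1 bp of overlap, which a wider peak reaches more readily, so score and width were not told apart. No siFOXA1-only peak was in more lists than the 4 that were each called in 5. The first of 3 named here, at 39876533 to 39877241 on chromosome 19, scored 551.78 and was called with DMSO, PladB and both stereoprobes in parental cells and in WT cells with WX-02-23. Another, on chromosome 2 from 92305082 to 92311198, lay beside the centromere gap and was called with both stereoprobes, in uninduced WT cells and in both induced C258A lists. The third, on chromosome 4 from 49150849 to 49153248, was called in 5 engineered lists and in none of the parental ones.

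Clustering was the second feature. Chromosomes were divided into 3113 bins of 1 Mb, and a bin with 3 or more siFOXA1-only peaks is called dense. The 1685 peaks fell into 912 bins, of which 694 held a single peak. The 83 dense bins held 721 peaks (42.8%, 40.4 to 45.2%). Over all siFOXA1 peaks, 45.9% lay in bins with 3 or more peaks of that longer set, and of the 1333 shared peaks 21.8% (19.7 to 24.1%) lay in bins with 3 or more of theirs.

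The share in dense bins was thus not above that of all siFOXA1 peaks, and sets of unlike size do not fill bins equally. Set beside shared peaks, the difference was clearest in a small number of very full bins. The fullest held 81 siFOXA1-only peaks, 21 bins held 10 or more, and the 10 fullest held 336 (19.9%). Over all siFOXA1 peaks the fullest bin also held 81 and the 10 fullest held 13.1%. Among shared peaks the fullest bin held 19 and the 10 fullest held 8.70%. Of the 1685 highest-scoring siControl peaks, 19.1% lay in dense bins and no bin held more than 6, and of the 1685 lowest-scoring ones 14.5% did and no bin held more than 5. For the 1685 highest-scoring peaks of the other 10 lists, the share in dense bins ran from 17.6% for WX-02-43 to 35.4% for C258A cells with doxycycline and DMSO, and the fullest bin held 15, with WX-02-23.

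**Figure D2:**
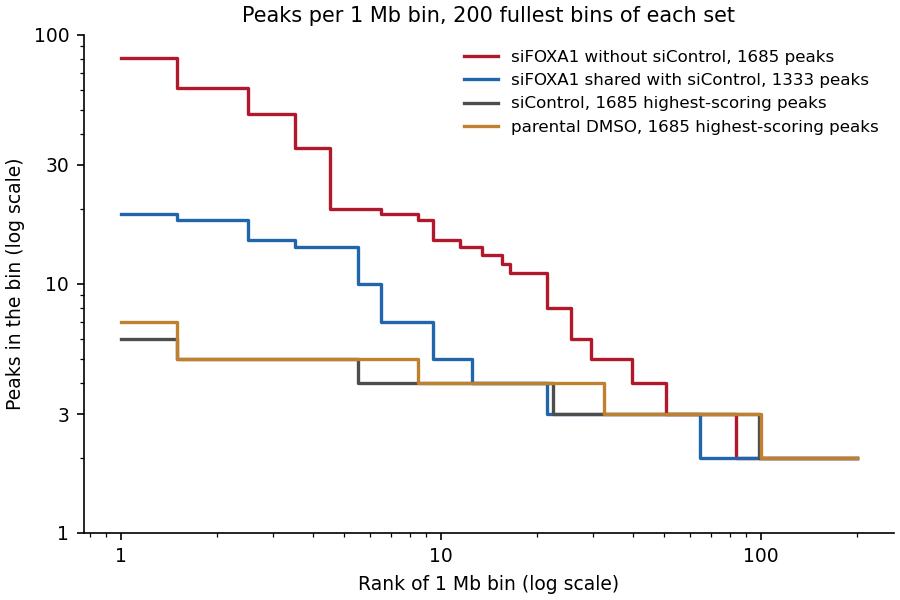
Peaks per 1 Mb bin (log axis) against the rank of the bin (log axis), for the 200 fullest bins of siFOXA1-only peaks, shared siFOXA1 peaks, and the 1685 highest-scoring siControl and parental DMSO peaks. The siFOXA1-only curve starts at 81, the shared curve at 19, siControl at 6 and DMSO at 7.

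The siFOXA1-only peaks inside dense bins differed from the scattered ones. Inside, the median score was 140 (quartiles 108 and 268) and the median width 682 bp (449 and 1209 bp). Outside, the 964 peaks had a median score of 109 (97.7 and 132) and a median width of 377 bp (306 and 470 bp). The share inside dense bins went from 27.5% of the peaks scoring below 100, and 37.5% from 100 to 200, to 75.4% from 200 to 500 and 94.3% (66 of 70) from 500 to 1000. Above that it was 82.8% (24 of 29). Calls in at least 1 other list were made for 9.71% (7.76 to 12.1%) of peaks inside and 5.19% (3.96 to 6.77%) outside. The scattered peaks were thus mostly narrow, close to the lowest score and seen in this library alone.

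The fullest bin, on chromosome 4 from 9 to 10 Mb, held 81 siFOXA1-only peaks and no shared one. They lay within 156 kb, had a median score of 349 and a highest of 1643.7, and covered 87.8 kb. The other 11 lists had 0 to 2 peaks in the whole bin, and no siFOXA1-only peak there was called elsewhere. The strongest ran from 9331704 to 9335446. This bin lay 40.3 Mb from the centromere gap, on the short arm.

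The next bin, on chromosome 7 from 61 to 62 Mb, held 61 siFOXA1-only peaks, the first of them 50.4 kb from the centromere gap. Their median score was 135 and the highest 337.1, for a peak from 61139543 to 61140865. The other lists had 0 to 8 peaks in this bin. On chromosome 8 from 7 to 8 Mb there were 48 siFOXA1-only peaks over 776 kb, with a median score of 134, the strongest from 7878786 to 7880174 at 486.01. The other lists had 0 to 12 there, the most with siControl. None of the siFOXA1-only peaks of these 2 bins was called in any of the 10 other lists.

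On chromosome 4 from 49 to 50 Mb, 35 siFOXA1-only peaks reached to 7.25 kb from the centromere gap, and 8 of them were called elsewhere. The strongest there ran from 49305334 to 49308557 and scored 987.59. On chromosome 1, the bin from 121 to 122 Mb beside the centromere held 20 peaks within 61.6 kb, led by one from 121397814 to 121399524 at 404.64, while the other lists had 1 to 6. The bin from 148 to 149 Mb also held 20, led by one from 148260534 to 148262927 at 435.52, but it also held many peaks of other lists, with 39 for siControl, 37 for parental WX-02-23 and 39 for WT cells with doxycycline and DMSO. Both siRNA libraries thus had many peaks in this bin, at places that only partly overlapped.

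The last 4 of the 10 bins held 15 to 19 siFOXA1-only peaks each. On chromosome 4 from 132 to 133 Mb there were 19, the strongest from 132657310 to 132658914 at 589.61, and the 4 induced lists had 22 to 33 peaks in the same bin, but called none of the 19. On chromosome Y from 9 to 10 Mb there were 19 weak ones, the strongest from 9366992 to 9367566 at 184.46. On chromosome 6 from 161 to 162 Mb, 18 peaks lay within 34.4 kb, the strongest from 161037391 to 161041651 at 1102.47, and none was called elsewhere. On chromosome 19 from 37 to 38 Mb, 15 peaks lay within 34.4 kb, the strongest from 37789886 to 37792066 at 830.22, and 5 were called elsewhere.

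**Figure D3:**
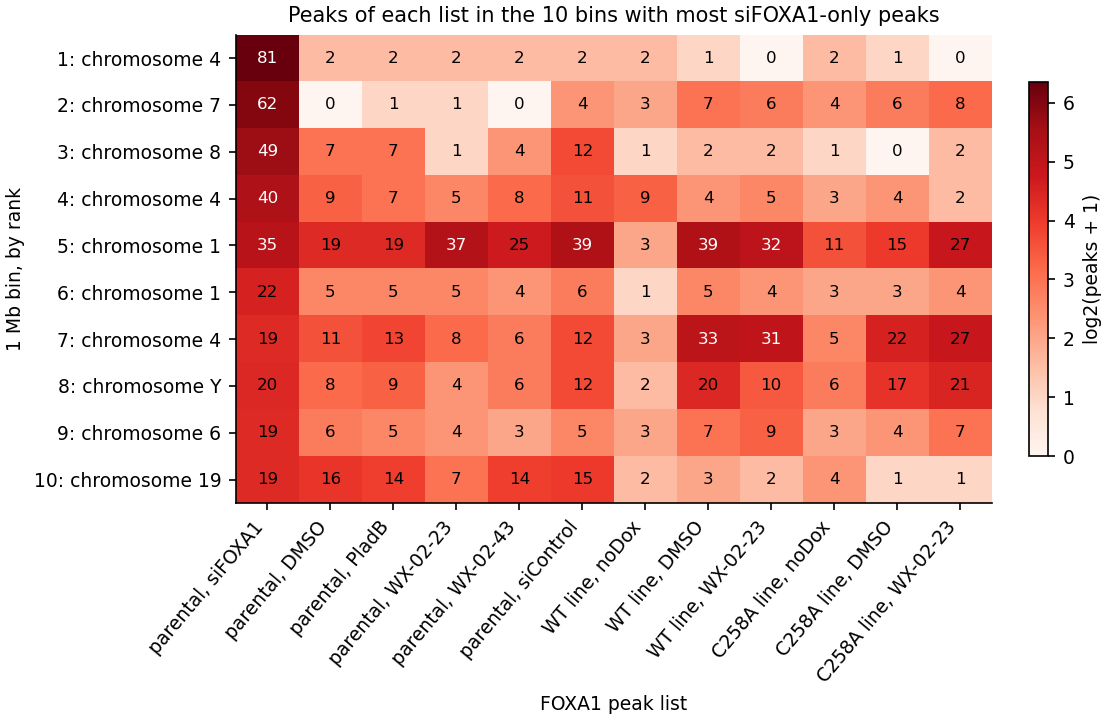
Number of peaks of each of the 12 lists in the 10 bins of 1 Mb with the most siFOXA1-only peaks, ranked from the top, with colour on a log2(peaks + 1) scale. In the first bin, on chromosome 4, the siFOXA1 list has 81 peaks and every other list 0 to 2, whereas in the fifth, on chromosome 1, siControl has 39 and siFOXA1 35.

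Within bins the peaks formed runs. Peaks were chained while the gap to the next was at most 10 kb. The siFOXA1-only peaks gave 32 runs of 5 or more, with 429 peaks in them (25.5%), against 1.74% of siControl peaks and 6.98% of shared siFOXA1 peaks. By number, the much longer siControl list had more such runs, 95 with 593 peaks in them. Runs over all siFOXA1 peaks were not analysed here. The longest siFOXA1-only run had 60 peaks, on chromosome 7 from 61104749 to 61237006. In the siControl list, with 34119 peaks, the longest run had 23.

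In some runs the pattern of covered bases recurred at a fixed spacing, and a stretch of that length could hold more than 1 peak. For each run of at least 8 peaks and 30 kb, the covered bases were correlated with themselves after a shift along the run, and the spacing was the shortest shift at which the correlation r had a local maximum of at least 0.8 times its highest one. A run was called repeated when r was above 0.25 at the spacing and at 2 times it, and below 0 at 0.5 and 1.5 times. This measure was chosen after the positions were seen, r runs over bases of 1 library, and it describes the run only. Of 15 siFOXA1-only runs measured, 5 were repeated.

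A pair of repeated runs made up the fullest bin on chromosome 4. The first, from 9214741 to 9274494 with 46 peaks, had a spacing of 4740 bp (r 0.40, and 0.33 at 2 times the spacing, against -0.04 and -0.03 between). The other, from 9324668 to 9370745 with 35 peaks, had the same spacing of 4740 bp (r 0.55 and 0.64, against -0.16 and -0.17). The runs were 50.2 kb apart, and peaks covered 80.6% and 86.0% of them. Neither run held a siControl peak.

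The other repeated runs had spacings of their own. On chromosome 5 from 49406618 to 49441457, the pattern of 14 peaks recurred every 2220 bp (r 0.57 and 0.51, against -0.24 and -0.24), starting 0.976 kb from the centromere gap. On chromosome 8 from 7574222 to 7619252, a run of 14 peaks had a pattern that recurred every 7660 bp (r 0.58 and 0.49, against -0.30 and -0.26). This run of 45.0 kb was 5.88 spacings long. On chromosome 1 from 145312383 to 145364748, the pattern of 13 peaks recurred every 4720 bp (r 0.34 and 0.30, against -0.01 and -0.12), and 6 siControl peaks lay in the same run. The longest run, on chromosome 7, showed no such spacing, with r of 0.12 at its best shift.

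Repeated spacing also occurred in the siControl list, where 5 of 11 runs measured were repeated. The clearest, on chromosome X from 114959481 to 115005397, had 23 peaks and a spacing of 2960 bp (r 0.78 and 0.71). Another, on chromosome 19 from 48406735 to 48461662, had 15 peaks and a spacing of 5360 bp (r 0.55 and 0.62). The siFOXA1 library had peaks at these places too: 14 of its peaks that are shared with siControl lay in the bin on chromosome X from 114 to 115 Mb, and 14 in that on chromosome 19 from 48 to 49 Mb. Repeated spacing was thus not confined to runs of siFOXA1-only peaks, which by the rule cannot overlap a siControl peak.

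**Figure D4:**
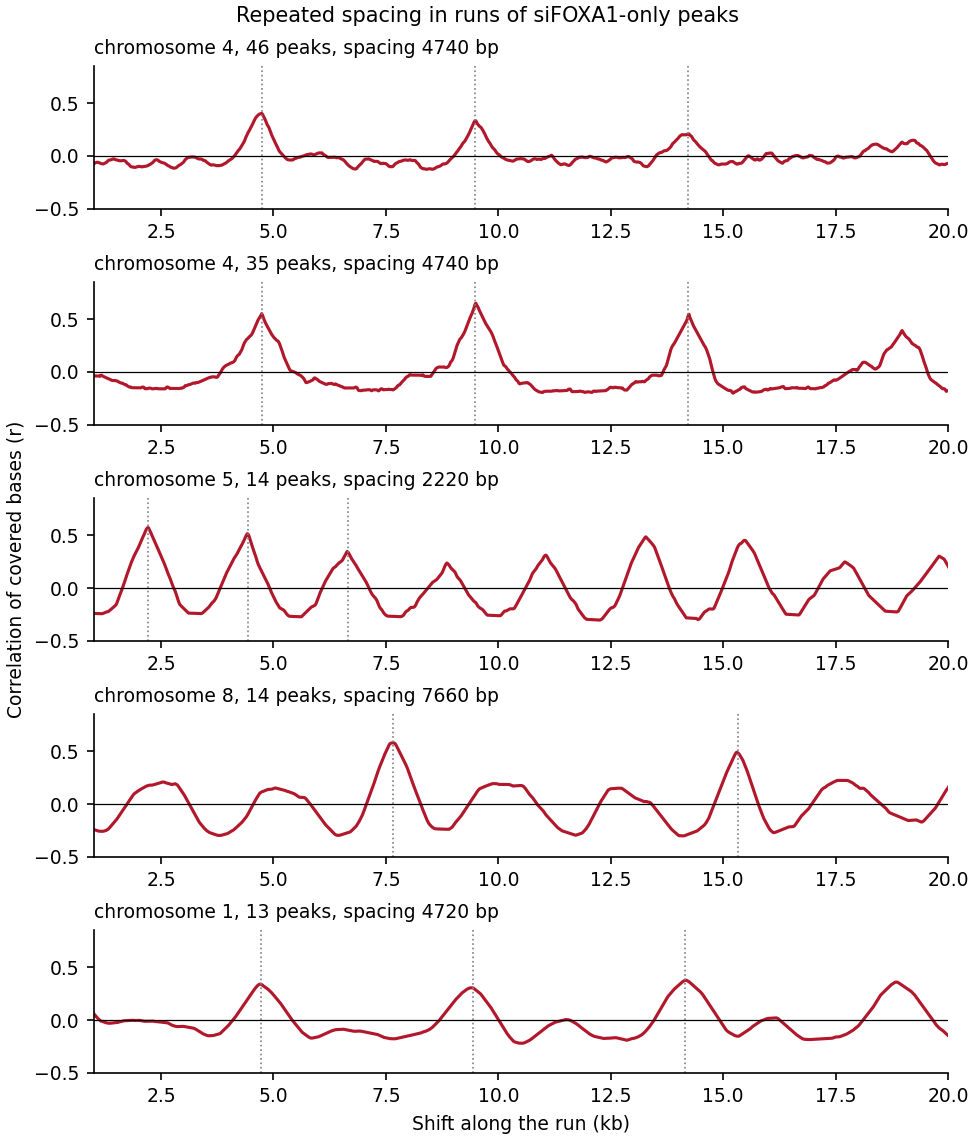
Correlation r of covered bases with themselves after a shift along the run (kb), for the 5 repeated runs of siFOXA1-only peaks, with dotted lines at the spacing and its multiples. Both runs on chromosome 4 rise at 4740 bp and again at its multiples, and the run on chromosome 5 rises every 2220 bp.

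Position relative to the centromere was the third feature. The hg19 assembly leaves a gap of 3 Mb at each centromere, and distances were taken from the nearer edge. Within 2 Mb of a gap lay 273 siFOXA1-only peaks (16.2%, 14.5 to 18.0%), against 10.6% of all siFOXA1 peaks and 48 shared ones (3.60%, 2.73 to 4.74%). In the other 11 lists the share ran from 2.36% with parental DMSO to 2.91% in C258A cells with doxycycline and DMSO, and the windows make up 3.10% of chromosome length. Unassembled sequence other than the centromere gaps was not taken out of the windows or of the length. The 3018 highest-scoring peaks of those lists gave 1.59 to 3.58%, and the 1685 lowest-scoring siControl peaks gave 1.96%.

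Most of these peaks lay within 0.5 Mb of the unassembled sequence. Of the siFOXA1-only peaks, 103 (6.11%) lay in the first 0.5 Mb on the long-arm side and 82 (4.87%) in the first 0.5 Mb on the short-arm side. For siControl the same windows held 0.246% and 0.234% of peaks. In the next 0.5 Mb the siFOXA1-only shares were 1.07% and 2.20%. Without the 10 fullest bins, 138 of 1349 siFOXA1-only peaks (10.2%) lay within 2 Mb of a gap. At that distance 26 of the 273 (9.52%) were called in another list, and the median score of the 273 was 134 and the median width 697 bp.

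**Figure D5:**
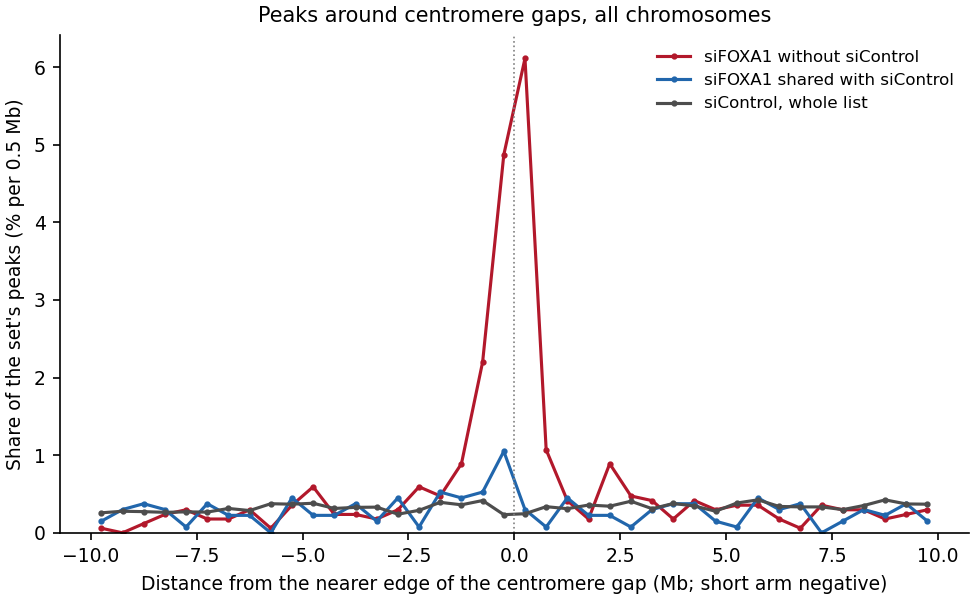
Share of each set's peaks per 0.5 Mb (percent) against the distance from the nearer edge of the centromere gap (Mb, short arm negative), over all chromosomes. The siFOXA1-only peaks reach 6.11% just past the gap and 4.87% just before it, where the whole siControl list stays at 0.246% and 0.234%.

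The chromosomes contributed unevenly. Chromosome 7 gave 66 of the 273 peaks, 61 of them on the long-arm side, and chromosome Y gave 44. Chromosome 4 gave 36 and chromosome 1 gave 20, all on the short-arm side, and chromosome 5 gave 14, all on the long-arm side. None lay within 2 Mb of the gap on chromosomes 9 and 11. How much assembled sequence each side of a gap holds was not analysed here, so a side without peaks may be one where none could be called. Per megabase, siFOXA1-only peaks were densest on chromosome 4 (1.09), chromosome Y (1.08), chromosome 19 (0.95) and chromosome 8 (0.82), and sparsest on chromosome 12 (0.28). Without the 10 fullest bins, chromosome 4 fell to 0.39, chromosome 8 to 0.49, chromosome 19 to 0.69 and chromosome Y to 0.76. Chromosome Y held 64 siFOXA1-only peaks and 14 shared ones, while 219 siControl peaks (0.642%) lay there. For siControl the density was highest on chromosome 12, at 15.1 per megabase, and lowest on chromosome Y, at 3.69, so the chromosome with the lowest density of one set had the highest, or nearly the highest, of the other.

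Chromosome ends held a smaller excess. Within 2 Mb of an end lay 76 siFOXA1-only peaks (4.51%, 3.62 to 5.61%), against 3.48% of all siFOXA1 peaks and 29 shared ones (2.18%, 1.52 to 3.11%). The other 11 whole lists gave at most 2.83%, the siControl value, and the windows make up 3.10% of chromosome length. The 1685 lowest-scoring siControl peaks gave 3.15%, and the 1685 lowest-scoring parental DMSO peaks 2.49%. Chromosome 5 gave 8 of the 76, and chromosomes 4 and 11 gave 6 each.

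Many of the strongest siFOXA1-only peaks lay beside gaps or near ends. Of the 10 with the highest score, 5 lay within 2 Mb of a centromere gap and 3 within 2 Mb of a chromosome end, all 10 were wider than 2000 bp, and 5 were called in no other list. Some of the 10 shared peaks at 3100 also lay near ends, on chromosomes 4 and 5. Nearness to an end was thus not particular to siFOXA1-only peaks. Nearness to gaps was not compared here for the strongest shared peaks. Among siFOXA1-only peaks, a score of 3100 was reached on chromosome 8 from 46838900 to 46847089. This peak began 12 bp past the gap and was called with WX-02-23 alone among the 10 lists. On chromosome Y, peaks from 10084457 to 10091608 and from 10094610 to 10104555 had the same score, lay beside the gap and were called in no other list.

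The remaining siFOXA1-only peaks at 3100 lay near chromosome ends. One, on chromosome 4 from 190987660 to 190991387, was 163 kb from the end of the long arm. It lay 34 bp from a siControl peak and was called with both stereoprobes. Shared siFOXA1 peaks, some with the same score, followed directly after it. The long arm of chromosome 4 ends in the macrosatellite that carries DUX4 copies, and whether the peak lies in it was not analysed here. The other, on chromosome Y from 58819341 to 58823291, was 550 kb from the end and was called with WX-02-23 and in both uninduced engineered lists.

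The next 5 siFOXA1-only peaks by score were on chromosomes 8, 14 and Y. The peak on chromosome 14 from 105695982 to 105698968 scored 2499.07, lay 1.65 Mb from the chromosome end and 202 kb from the nearest siControl peak, and was called nowhere else. On chromosome 8, peaks from 86838025 to 86840922 (score 2505.49) and from 86741613 to 86744608 (1725.54) lay in a bin with 14 siFOXA1-only and 18 shared peaks. The former was called with both stereoprobes and the latter in no other list. They lay 1.76 and 1.12 kb from the nearest siControl peak, and each was close to a shared siFOXA1 peak. The peak on chromosome Y from 13105433 to 13127339 (2090.62) began 0.879 kb past the gap, and that on chromosome 8 from 43820863 to 43826519 (1885.02) ended 12.4 kb before it, and was called with PladB and WX-02-23.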

How the data were processed

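Chromatin of 22Rv1 cells was fixed with 1.1% formaldehyde, sonicated and enriched with an antibody against FOXA1, per the labels' protocols. Of 15 samples, 12 had a peak list and 3 were inputs, which were not analysed here. Bowtie2, bcl2fastq and hg19 are named in the submitters' processing notes. The peak names begin with MACS, per the file contents, and caller version, threshold and control are not given in the sources used here. The deposited score is the authors' value for each peak, with no stated definition, and depth is unknown. Each list is of 1 library, and peak numbers ran without gaps in all 12 lists.

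Starts were read as counted from 0 and are printed counted from 1. Peaks were shared when they overlapped by 1 bp or more. Wilson 95% intervals of shares were computed with scipy 1.17.1 and allow for counting error alone. No hg19 genome was used: chromosome lengths and the 3 Mb centromere gaps were written down from knowledge of that assembly and checked against the lists. No peak passed a chromosome end, and 7 of 249079 peaks reached into a gap, by at most 52 bp. A peak was put in the 1 Mb bin of its midpoint. Runs and their spacing (shifts of 2000 to 15000 bp in steps of 20 bp, shortest shift where the correlation had a local maximum of at least 0.8 times the highest local maximum) were described after the positions were seen, and the comparisons with lowest-scoring peaks and with the 3018 highest-scoring peaks of other lists were also added then. The functions for these measures were tested on simulated data with planted answers.

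Members, bins and lists were chosen with earlier results of these data known. Peaks named by position are the 10 highest-scoring members, the highest of each of the 10 fullest bins, the 3 highest in no other list and the 3 in the most lists, the 3 widest, and the 3 on each side of the rule's edge. Runs were named after their values were seen. The alternatives were other overlaps, list lengths, score ranges, bins, windows and chromosomes.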

Additional observations from a re-analysis of the deposited data

Results flagged for a closer look

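The count of siFOXA1-only peaks called with WX-02-23 was higher than with DMSO in induced WT cells and nearly the same in induced C258A cells. In WT cells the count was higher by 8 than with DMSO, from 2 to 10 peaks, and in C258A cells it changed by -1, from 7 to 6. Over all siFOXA1 peaks the direction was reversed for both lines. The induced WT list held 6.93% of them under DMSO and 6.33% under WX-02-23. For the C258A line these shares were 5.24% and 6.83%. Each count comes from 1 library, and the difference between the lines was not tested. With 8575 peaks per list the counts were 1 and 2 in WT cells and 3 and 3 in C258A cells.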

How the results depend on the processing

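Alternatives were computed for 17 results, 95 values in all. A value moved in 41 cases, meaning beyond the reported interval or by over 1.5 times for a count, and did not in 54. Leaving out the 10 densest bins was chosen after seeing the data. No paired analysis was possible because each group had 1 library. In the order DMSO, PladB, WX-02-23 and WX-02-43, the shares called in parental lists moved to 0.534%, 0.950%, 3.20% and 2.31% with a reciprocal overlap of 50%, and to 2.79%, 3.68%, 7.30% and 5.70% with a gap of up to 500 bp. They moved to 2.15%, 3.23%, 9.37% and 6.91% in the upper 50% of siFOXA1 scores, and to 0.237%, 0.237%, 1.42% and 0.772% with lists of equal length. WX-02-23 thus stayed the highest and DMSO the lowest, or level with PladB, under each. Over all siFOXA1 peaks in the main setting, WX-02-23 was also the highest of these lists (43.7%) and DMSO the lowest (40.3%). Their shares under the alternatives were not analysed here, so the order is not shown to be particular to siFOXA1-only peaks. The share called in none of the 10 lists moved to 94.9%, 88.7%, 86.8% and 97.5% in these 4 settings.

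In the engineered lines, the 500 bp gap gave 1.48% (WT noDox), 0.653% (WT DMSO) and 0.831% (C258A noDox). The upper 50% of scores gave 0.00% for WT DMSO (0 of 651 peaks). Equal length gave 0.119% (WT WX-02-23) and 0.178% (C258A DMSO). The upper 50% of scores held 651 siFOXA1-only peaks, with 55.1% in dense bins and 21.5% near a gap. Bins of 0.5 and 2 Mb put 37.9% and 50.7% in dense bins. Within 1 and 5 Mb of a gap lay 14.2% and 21.0%, and within 1 and 5 Mb of an end 2.91% and 8.90%. Autosomes alone gave 14.2% near a gap. Without the 10 densest bins, 28.5% lay in dense bins, 10.2% near a gap and 5.63% near an end, with a median score of 112 and a median width of 412 bp. Unknown depth limits every count of calls: a region without a peak was not called in that library, which does not show that nothing was there.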

Other observations

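Some dense bins of siFOXA1 peaks were shared with siControl. On chromosome X from 114 to 115 Mb there were 14 shared siFOXA1 peaks and 0 siFOXA1-only ones, with 25 siControl peaks in the bin. On chromosome 19 from 48 to 49 Mb the counts were 14 shared, 0 siFOXA1-only and 35 siControl. On chromosome 8 from 86 to 87 Mb, 18 shared and 14 siFOXA1-only peaks lay in one bin.

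A few siFOXA1-only peaks on the arms were called in all 4 of the parental DMSO, PladB, WX-02-23 and WX-02-43 lists, though not with siControl, and were singled out after their values were seen. They include narrow peaks on chromosome 22 from 41572126 to 41572689 (score 561.16, 79.3 kb from the nearest siControl peak), on chromosome 19 from 6222120 to 6222717 (406.03) and on chromosome 2 from 27428046 to 27428452 (261.44).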
